A study of Homo sapiens with 4 samples.

Results

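The 10 genes described here build the architecture of epithelia and were followed in human embryonic stem cells at day 5 of cardiac differentiation: the simple keratin genes KRT8, KRT18 and KRT19, the claudin genes CLDN3, CLDN4, CLDN6, CLDN7 and CLDN10, and the junction plaque genes DSP and TJP1. The members were taken by annotated gene symbol, which gave 16 probes for the 10 genes among 47322 probes and 20046 named genes on the array. The tested arrays were 1 of RUES2 cells with shRNA 691 and 1 with shRNA 94, both short hairpin RNAs that target TMEM88, whose membrane protein is known to act on the Wnt pathway. They were set against 2 arrays of RUES2 cells with a control shRNA, controls 1 and 2. RUES2 is an established human embryonic stem cell line, and in all 4 samples undifferentiated cells had received a lentivirus, had been selected with puromycin and had then been differentiated to the cardiovascular progenitor stage. The TMEM88 group thus holds 1 array of each hairpin and no repeat of either, from 1 cell line, and no untransduced cells were used here. Whether the 4 samples were independent cultures is not given, so every p-value reflects only how these samples scatter, and that scatter may be technical. Below, ± gives the standard error (SE) of the limma fit with n = 2 arrays per group. For a difference between the hairpins the fit sets 1 array against 1, and its residual spread comes from the controls. Other differences are TMEM88 shRNA minus control on the log2 scale. Adjusted p-values are Benjamini-Hochberg values over all tested genes.

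Keratins 8, 18 and 19 are the intermediate filament proteins of simple, one-layered epithelia. Keratin 8 pairs with keratin 18 or 19, and the filaments attach to desmosomes through desmoplakin, the product of DSP. Claudins span the membrane at tight junctions and set how permeable the seal between cells is, and ZO-1, the product of TJP1, ties them to actin. Pluripotent stem cells form an epithelium and carry keratins 8, 18 and 19 and claudins. Cells that leave it to become mesoderm pass through an epithelial to mesenchymal transition, in which claudins and E-cadherin are commonly lowered, while ZO-1 and desmoplakin also serve cell contacts of the heart.

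The arrays had 16516 detected probes with shRNA 691, 16240 with shRNA 94, and 15618 and 15300 in controls 1 and 2, at a detection p under 0.01. Their median signals were 135.7, 132.5, 130.9 and 132.2. TMEM88 itself was at 9.62% (shRNA 691) and 52.9% (shRNA 94) of its control level, the geometric mean of the controls after normalization, and passed against the controls for shRNA 691 but not for shRNA 94 (limma adjusted p = 0.0146 and 0.591). In the fit of both hairpins together, which is used for the results below, TMEM88 stood at -2.15 ± 0.71 and did not pass (limma adjusted p = 0.187). Of 14 cardiac progenitor markers on the array, TBX5 and TBX20 were detected on no array, and the other 12 on at least 1.

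Of the 10 genes, 9 were tested, all detected on all 4 arrays. No member passed the limma adjusted p threshold of 0.05, where 205 of 10377 tested genes did (1.98%). At an unadjusted p under 0.05 there were 3 members, CLDN3, CLDN7 and TJP1, against 18.3% of all tested genes. For 6 of the 9 members the 2 TMEM88 shRNA arrays lay wholly to one side of the controls, against 50.2% of all tested genes. Of these, 4 were higher, against 25.2% of all genes, and 2 were lower, against 24.9%. The members' log2 differences ran from -0.74 to 1.35 with a median of 0.32, beside a median of 0.0012 over all tested genes. In bulk RNA such as this, fewer cells of a type and less RNA per cell cannot be told apart. With 2 arrays against 2, an exact 2-sided permutation test of a single value cannot give a p below 0.333, so the limma fit across all genes is the test used throughout.

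**Figure D1:**
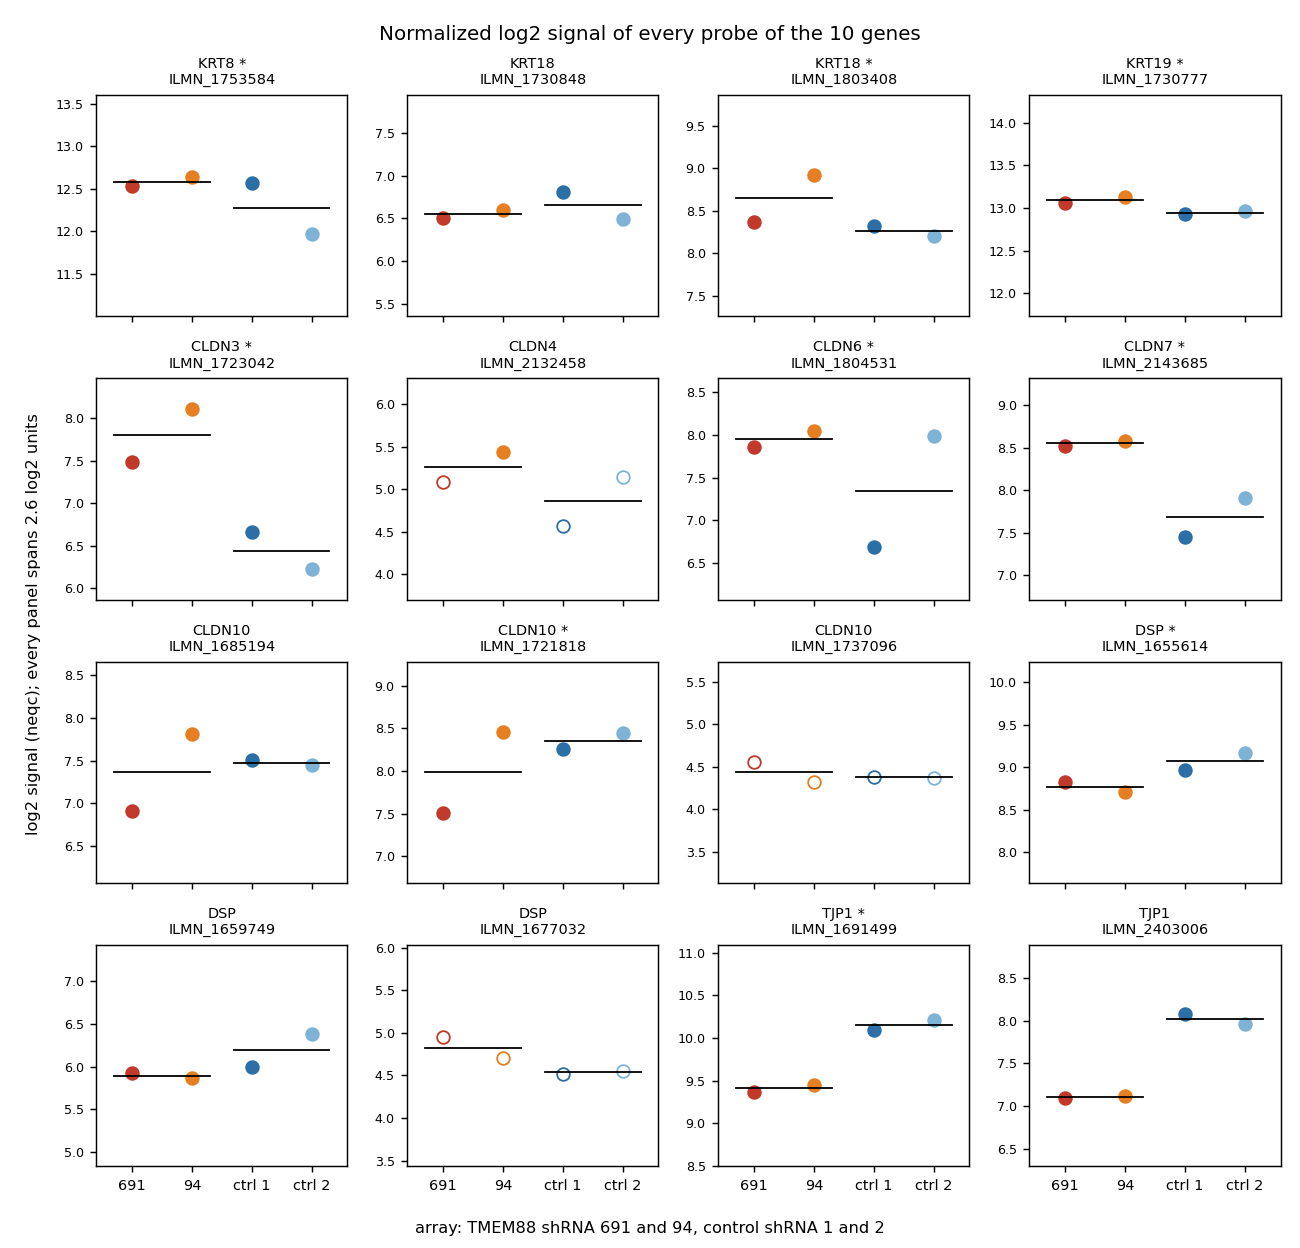
Normalized log2 signal (neqc) of each of the 16 probes on the 4 arrays, with TMEM88 shRNA 691 and 94 left of control shRNA 1 and 2. Horizontal lines are group means, open circles are below detection, an asterisk marks the probe that represents the gene, and every panel spans the same range, so that the gap between groups is widest for CLDN3 and for the second probe of TJP1.

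None of the 3 keratin genes passed, and their log2 differences lay between 0.15 and 0.39. KRT8, encoding the type II keratin of simple epithelia, had signals of 5961.2 with shRNA 691 and 6621.5 with shRNA 94, against 6126.8 in control 1 and 4128.4 in control 2. Control 1 lay among the TMEM88 shRNA arrays and control 2 lay below all others, so the groups overlapped. The log2 difference of KRT8 was 0.32 ± 0.28 (limma adjusted p = 0.593), while its controls were 0.60 apart on the same scale. Without control 2 the difference was 0.02 and without control 1 it was 0.62.

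KRT19, the smallest type I keratin, had signals of 8599.7 and 9559.7 with shRNA 691 and 94, against 7724.1 and 8087.9 in controls 1 and 2. Both TMEM88 shRNA arrays were higher than both controls, by a small margin. The fold of KRT19 was 1.11, with a 95% interval of 0.767 to 1.6 (limma adjusted p = 0.778). The KRT19 level was 108% and 114% of control with shRNA 691 and 94, and 99% and 101% in controls 1 and 2 themselves.

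KRT18, the type I partner of KRT8, had 2 detected probes that differed in direction. The brighter one read 457.1 and 557.3 with shRNA 691 and 94, against 439.9 and 397.2 in controls 1 and 2, and its log2 difference was 0.39 ± 0.27 (limma adjusted p = 0.508). On this probe the groups did not overlap, but the shRNA 691 array stood close to control 1. The dimmer probe of KRT18 read 209 and 196.9 with shRNA 691 and 94, against 220.7 and 195 in the controls, with the groups overlapping and a log2 difference of -0.10 ± 0.24. KRT8 and KRT18 have many processed pseudogenes, and whether these probes also bind pseudogene RNA was not tested.

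The claudins differed from each other more than the keratins did. CLDN3, a sealing claudin of tight epithelia, had signals of 301.6 with shRNA 691 and 359.9 with shRNA 94, against 209.6 and 179.6 in controls 1 and 2. Both TMEM88 shRNA arrays lay above both controls. After normalization CLDN3 stood at 206% and 317% of control with shRNA 691 and 94, and at 116% and 86.1% in controls 1 and 2. Its log2 difference of 1.35 ± 0.30 was a 2.56-fold higher level, with a 95% interval of 1.56 to 4.2, and it did not pass the threshold (limma adjusted p = 0.0843). Of the 9 tested members CLDN3 had the lowest unadjusted p (0.00298), which ranked 366 among 10377 genes. The CLDN3 signal is near the background, and the log2 difference was 0.72 with no background correction and 0.78 in the deposited matrix.

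CLDN7, a claudin also found along the lateral membrane below the tight junction, had signals of 494.3 and 460.4 with shRNA 691 and 94, against 289 and 342.5 in controls 1 and 2. The TMEM88 shRNA arrays were again both above both controls. The CLDN7 level was 179% and 186% of control with shRNA 691 and 94. The log2 difference was 0.87 ± 0.25, a fold of 1.83 with a 95% interval of 1.2 to 2.77 that did not pass (limma adjusted p = 0.147). CLDN7 lies on chromosome 17, as TMEM88 does, with 591853 bases between the genes.

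CLDN6, a claudin of embryonic and pluripotent epithelia, depended on which control it was set against. Its signals were 355.4 and 348.8 with shRNA 691 and 94, against 212.3 in control 1 and 357.1 in control 2. Control 2 matched the TMEM88 shRNA arrays and control 1 stood apart below, and control 1 minus control 2 was -1.30 on the log2 scale. The log2 difference of CLDN6 was 0.61 ± 0.42 (limma adjusted p = 0.498). It was -0.044 without control 1 and 1.26 without control 2.

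CLDN4, a sealing claudin whose gene neighbours CLDN3, was the member that was not tested. Its single probe read 144.5 and 149 with shRNA 691 and 94, against 121.2 and 141.7 in controls 1 and 2, and only the shRNA 94 array reached detection. A difference in CLDN4 was not detectable at this signal. CLDN10, a claudin with alternative first exons that encode pores of different charge, had 3 probes. Its brightest probe read 304.3 with shRNA 691 and 429.2 with shRNA 94, against 425.8 and 452.9 in controls 1 and 2, so that the shRNA 691 array alone was low. The other detected probe of CLDN10 read 239.3 and 313.2 with shRNA 691 and 94, against 294.9 and 277.8, again with shRNA 691 lowest. The third probe of CLDN10, the one annotated to transcript NM_182848 where the others carry NM_006984, was detected on no array.

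The CLDN10 log2 difference over both hairpins was -0.37 ± 0.34 (limma adjusted p = 0.62), made up of -0.84 for shRNA 691 and 0.11 for shRNA 94. The difference between the hairpins for CLDN10 was -0.95 ± 0.46 and did not pass (limma adjusted p = 1, unadjusted p = 0.0681). Among the 9 tested members CLDN10 had the largest difference between the hairpins. No gene among 10377 passed in the test of shRNA 691 against shRNA 94 (0%).

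TJP1, encoding the scaffold ZO-1, was lower with both hairpins on both of its probes. The brighter probe read 794.7 and 759.4 with shRNA 691 and 94, against 1241.5 and 1313.1 in controls 1 and 2. The dimmer one read 257.4 and 235.5 with shRNA 691 and 94, against 388.3 and 351.9 in the controls. On both probes of TJP1 the 2 groups lay apart, with controls within 0.12 of each other on the log2 scale. The brighter probe stood at 58.3% and 61.6% of control with shRNA 691 and 94. Its log2 difference was -0.74 ± 0.23, with a 95% interval for the level of 0.414 to 0.868 times control, which did not pass (limma adjusted p = 0.16). In a fit across 16464 detected probes, of which 1.6% were called, the dimmer TJP1 probe gave -0.91 ± 0.23 (limma adjusted p = 0.114).

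DSP, encoding the desmosomal plakin that anchors keratin filaments, had 2 detected probes. The brighter one read 583.3 and 494.5 with shRNA 691 and 94, against 628 and 683 in controls 1 and 2, both TMEM88 shRNA arrays below both controls. The log2 difference of DSP was -0.30 ± 0.23 (limma adjusted p = 0.54), and the dimmer detected probe also gave -0.30. The third probe of DSP, annotated to NM_004415 where the others carry NM_001008844, was detected on no array. The platform annotation gives each probe 1 transcript, and whether a probe is specific to it was not tested.

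**Figure D2:**
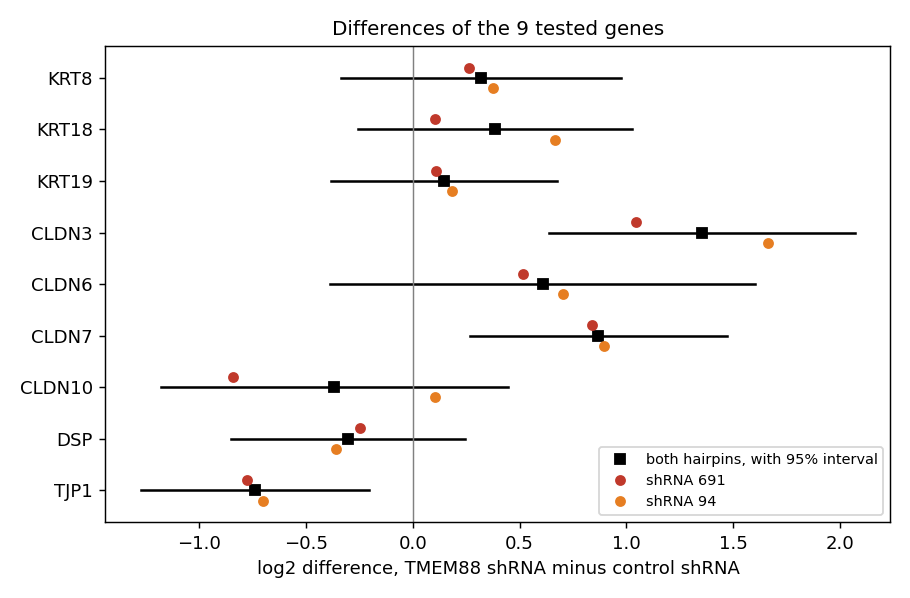
Log2 difference of each tested gene, TMEM88 shRNA minus control shRNA, for both hairpins together (squares, with 95% intervals of the limma fit) and for shRNA 691 and shRNA 94 singly (circles). The intervals of CLDN3 and CLDN7 lie above 0 and that of TJP1 below it, before adjustment for the number of genes tested.

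Each hairpin was also set singly against the controls, and both comparisons share the control arrays, so their values are given side by side. For CLDN3 the log2 differences were 1.04 with shRNA 691 and 1.67 with shRNA 94. For CLDN7 they were 0.84 and 0.90, and for TJP1 -0.78 and -0.70. No member passed with shRNA 691, where 0.867% of genes did, or with shRNA 94, where 0.482% did. TMEM88 RNA was lower on the shRNA 691 array than on the shRNA 94 array. TJP1 and CLDN10 were further from the controls with shRNA 691, and the other tested members, CLDN3 among them, with shRNA 94. The difference between the hairpins for CLDN3 was -0.62 ± 0.47, from 1 array of each, and did not pass. That of TMEM88 did not pass either.

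The controls weighed on these calls. Without control 1, CLDN3 passed (log2 difference 1.57, limma adjusted p = 0.015), and without control 2, CLDN6 and CLDN7 passed (limma adjusted p = 0.0268 and 0.0409), while TJP1 passed in neither. Such a fit takes its spread from the 2 TMEM88 shRNA arrays alone and calls more genes throughout, 14% of all genes without control 1 and 5.28% without control 2.

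**Figure D3:**
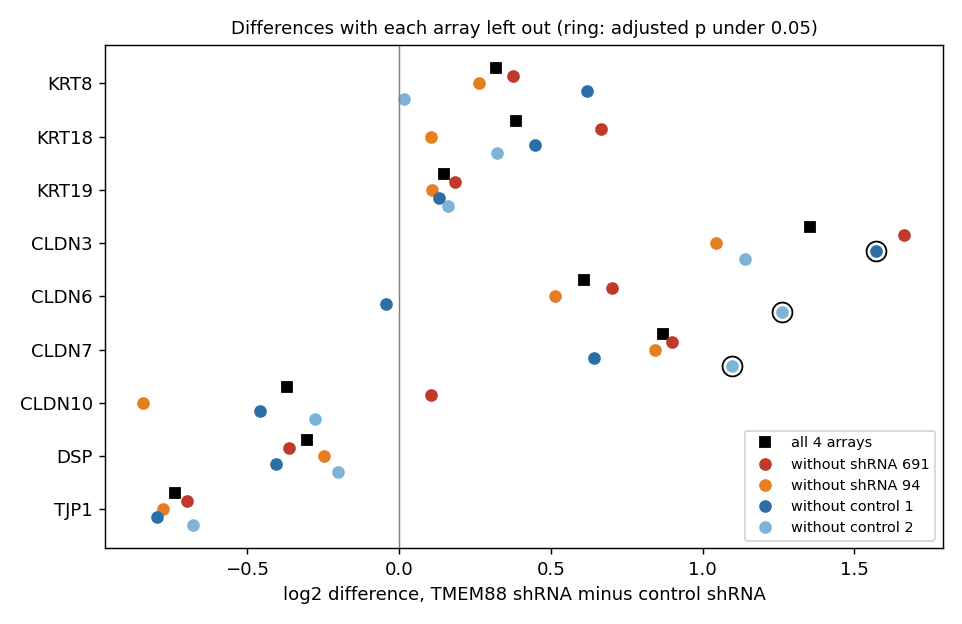
Log2 difference of each tested gene with all 4 arrays (squares) and with 1 array left out (circles), rings marking an adjusted p under 0.05. CLDN6 moved between -0.044 and 1.26 with the control left out, while TJP1 stayed between -0.80 and -0.68 in all fits shown.

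The promoters of CLDN3, CLDN6, CLDN7 and TJP1 are shown because these 4 tested members had the largest differences. The start shown for each is the listed one that holds the E-box CACCTG on either strand. These letters are bound by the SNAI and ZEB repressors of epithelial genes. The sequences are from RefSeq on GRCh38.p14 and run 5′ to 3′ from 250 bases before to 50 after a listed start. The E-boxes are in capitals, which read as the reverse complement where the box is on the other strand.
CLDN3, chr7:73770221-73770520, minus strand: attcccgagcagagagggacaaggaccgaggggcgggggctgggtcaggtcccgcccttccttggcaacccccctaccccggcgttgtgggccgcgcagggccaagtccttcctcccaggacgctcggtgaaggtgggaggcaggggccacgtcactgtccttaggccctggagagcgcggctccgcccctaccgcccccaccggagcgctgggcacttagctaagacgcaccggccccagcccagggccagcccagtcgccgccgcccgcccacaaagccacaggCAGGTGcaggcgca
CLDN6, chr16:3018134-3018433, minus strand: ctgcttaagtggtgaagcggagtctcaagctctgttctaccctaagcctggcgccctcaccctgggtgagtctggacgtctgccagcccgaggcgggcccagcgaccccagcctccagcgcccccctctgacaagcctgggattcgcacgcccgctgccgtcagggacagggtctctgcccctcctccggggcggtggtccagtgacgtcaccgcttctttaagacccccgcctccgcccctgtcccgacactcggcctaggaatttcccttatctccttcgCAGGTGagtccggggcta
CLDN7, chr17:7262429-7262728, minus strand: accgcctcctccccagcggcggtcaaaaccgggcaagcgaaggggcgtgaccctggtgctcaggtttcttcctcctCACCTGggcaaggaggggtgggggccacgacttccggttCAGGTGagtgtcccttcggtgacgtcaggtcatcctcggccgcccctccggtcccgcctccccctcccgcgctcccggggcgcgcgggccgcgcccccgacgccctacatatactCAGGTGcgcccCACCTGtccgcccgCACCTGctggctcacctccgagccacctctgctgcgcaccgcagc
TJP1, chr15:29969000-29969299, minus strand: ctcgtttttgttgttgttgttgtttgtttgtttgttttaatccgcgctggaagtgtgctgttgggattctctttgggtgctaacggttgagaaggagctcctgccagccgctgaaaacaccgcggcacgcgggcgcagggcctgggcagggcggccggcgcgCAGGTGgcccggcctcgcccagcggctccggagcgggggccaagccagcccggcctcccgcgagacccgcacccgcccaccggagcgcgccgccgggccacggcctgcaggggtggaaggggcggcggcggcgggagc

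CLDN7 held 5 copies of the E-box at the start shown, which lies inside the gene. It held none at its other listed start, which is at the outer end of the gene. TJP1 held 1 copy at the start shown and none at its other listed starts. Among all 35116 promoters of the table, 20.6% held the E-box and 0.094% held 5 or more copies. Of the 13 promoters listed for 8 of the members, 5 held it: these 4 and that of DSP, with 2 copies. The grainyhead-like motif AACCGGTT was in none of the 13, against 0.134% of all promoters. The AP-2-like motif GCCNNNGGC was in 3 of the 13, those of CLDN3, CLDN6 and CLDN10, against 23.2% of all, and in CLDN3 it overlapped the E-box. A match is a run of letters and not a bound site.

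The wider families were described from lists of related genes. Of 22 other keratin genes on the array, 20 were detected on no array, among them KRT7, KRT14 and KRT20, and the 2 tested ones, KRT10 and KRT80, did not pass, KRT10 at -0.19 ± 0.25. KRT80 was detected in both controls and on neither TMEM88 shRNA array, so it entered the test through the controls alone (limma adjusted p = 0.179). Its signals were 142.1 and 141.1 with shRNA 691 and 94, against 156.9 and 167.5 in controls 1 and 2, all near the array medians. On the background-corrected scale the bound on its fold was 1.37 lower, which is not a tested minimum. This bound compares the mean of the controls with a floor on each TMEM88 shRNA array, either the dimmest signal detected there or the signal of KRT80 if that is larger.

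Of 6 other claudins tested, 1 passed, against 1.98% of all genes. CLDN11, a claudin of myelin and of Sertoli cell junctions, rose by 2.08 ± 0.26 on the log2 scale (limma adjusted p = 0.0155). Its signals were 468.4 and 391.4 with shRNA 691 and 94, against 172.4 and 194.3 in controls 1 and 2. CLDN11 did not pass without shRNA 691 or without shRNA 94 (limma adjusted p = 0.0935 and 0.0633), with log2 differences of 2.01 and 2.15. With all arrays its difference was 1.16 with no background correction and 1.24 in the deposited matrix, and it passed in both (limma adjusted p = 0.021 and 0.0139). The other tested claudins ran from -1.25 ± 0.35 for CLDN15 to 0.58 ± 0.27 for CLDN19. The 6 had a median of 0.31, beside 0.32 for the 9 tested members.

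Among 16 tested genes of tight junctions and polarity 1 fell and none rose, where 1.98% of all genes were called. CGNL1, encoding paracingulin, which joins tight and adherens junctions to the cytoskeleton, had signals of 1888.7 and 1747.6 with shRNA 691 and 94, against 5355.3 and 4393.6 in controls 1 and 2. Its log2 difference was -1.45 ± 0.24 (limma adjusted p = 0.0344), and it was lost without either TMEM88 shRNA array (limma adjusted p = 0.253 and 0.25). The list had 10 positive and 6 negative differences and a median of 0.16, so that TJP1 and CGNL1 stood below most of the tested genes of their junction.

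Among 8 tested desmosome and plakin genes 1 fell, beside the same 1.98%. PKP2, the plakophilin that binds desmoplakin in heart and simple epithelia, had signals of 538.1 and 584.2 with shRNA 691 and 94, against 1252.8 and 1439.9 in controls 1 and 2. Its log2 difference was -1.38 ± 0.25 (limma adjusted p = 0.0478), and the call was lost without shRNA 691 or shRNA 94 (limma adjusted p = 0.377 and 0.188). The other 7, which did not pass, were DSC2 at -1.08 ± 0.22, DSG2 at -0.07, JUP at -0.03, PPL at 0.24, PKP4 at 0.25, PLEC at 0.53 and PERP at 0.86 ± 0.24.

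Of 15 tested genes of the epithelial surface and adherens junction none passed, 13 had a positive difference, against 50.1% of all genes, and the median was 0.63. In 10 of these 15 both TMEM88 shRNA arrays lay above both controls, against 25.2% of all genes. The brightest, SPINT2 and CTNNA1, stood at 0.23 ± 0.23 and 0.08 ± 0.25. EPCAM, an adhesion molecule that binds claudin 7, and CDH1 and CDH3, encoding E-cadherin and P-cadherin, are named after their values were seen. EPCAM had signals of 3911.8 and 4120.7 with shRNA 691 and 94, against 2050 and 2127.5 in controls 1 and 2 (log2 difference 1.01 ± 0.22, limma adjusted p = 0.0848). CDH1 had a log2 difference of 0.79 ± 0.28 and CDH3 one of -0.61 ± 0.25 (limma adjusted p = 0.212 and 0.263), CDH3 being lower on both TMEM88 shRNA arrays than in both controls.

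Of 6 tested epithelial transcription factors none passed, and 3 had a positive and 3 a negative difference. The brightest were OVOL2, a repressor of mesenchymal genes, at 1.17 ± 0.24 (limma adjusted p = 0.0647) and FOXA1 at 0.67 ± 0.36. TFAP2A, TFAP2C and ELF3, named after their values were seen, stood at -1.05 ± 0.85, -0.38 ± 0.60 and -0.19 ± 0.45. In these 3 the groups overlapped, control 2 being the highest array and control 1 the lowest. For TFAP2A the signals were 175.5 and 142.7 with shRNA 691 and 94, against 140.1 and 377.7 in controls 1 and 2. In the 3 positive factors both TMEM88 shRNA arrays lay above both controls, against 25.2% of all genes. Of 7 tested repressors and mesenchymal genes 1 rose and 1 fell, against 1.98% of all genes called, and 3 had a positive and 4 a negative difference. TWIST1 and CDH2, named after their values were seen, stood at 1.02 ± 0.29 and -0.42 ± 0.24 and did not pass. SNAI2, a zinc finger repressor that binds E-boxes, rose by 1.43 ± 0.25 (limma adjusted p = 0.0443). VIM, the mesenchymal intermediate filament gene, fell by 2.03 on the log2 scale (limma adjusted p = 0.0163). Both calls were lost without either TMEM88 shRNA array, and that of SNAI2 also with median scaling (limma adjusted p = 0.0673). SNAI1 and ZEB1 were detected on no array. With no detection filter, CLDN11, CGNL1, PKP2, SNAI2 and VIM all missed the threshold (limma adjusted p of 0.068, 0.0921, 0.115, 0.115 and 0.0716).

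**Figure D4:**
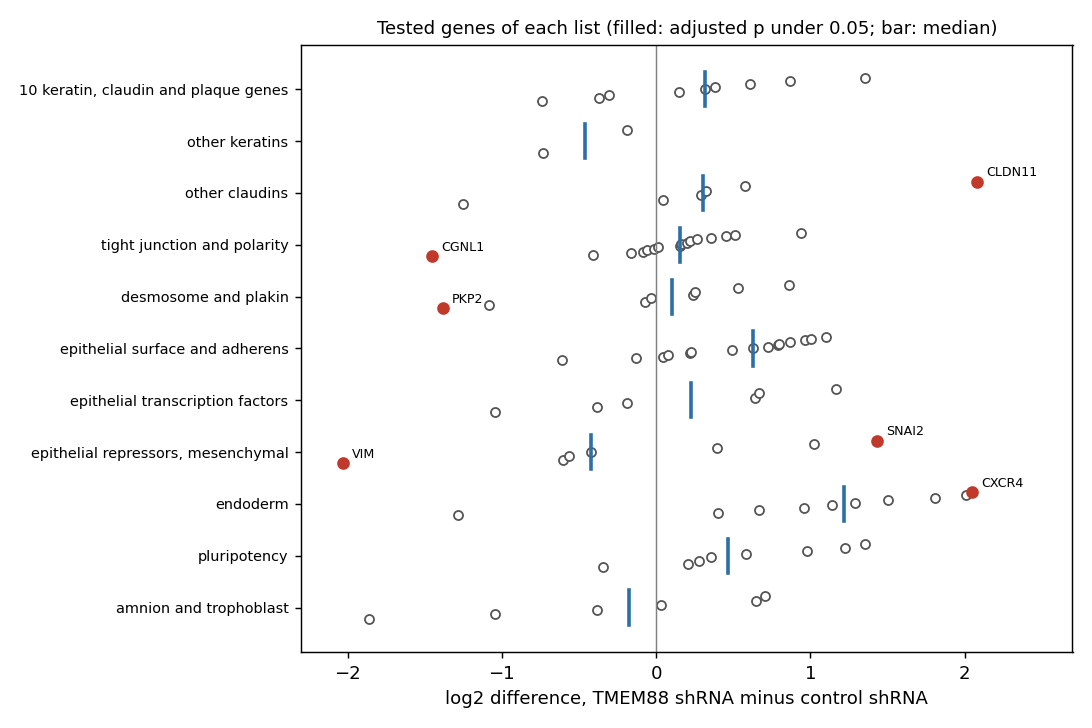
Log2 differences, TMEM88 shRNA minus control shRNA, of the tested genes of each list shown. Filled points have an adjusted p under 0.05 and bars are list medians. The endothelial and cardiac progenitor lists are not drawn. None of the keratin, claudin and plaque genes in the top row is filled, and the called genes of the epithelial lists, CLDN11, CGNL1 and PKP2, lie outside it.

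Marker levels of other cell types that carry keratins and claudins were read on the same arrays. The summed level of 11 endoderm markers was 4217 and 3997 with shRNA 691 and 94, against 2015 and 1363 in controls 1 and 2, and AFP was detected on no array. FOXA2 was the brightest of them on every array, at 2101.4 and 1387.4 with shRNA 691 and 94, against 1042 and 486 in controls 1 and 2. Of the tested ones 9 had a positive difference and 1, GATA6, a negative one of -1.29 ± 0.32. Of 10 tested endoderm genes 1, CXCR4, rose, against 1.98% of all genes called (log2 difference 2.05 ± 0.28, limma adjusted p = 0.0207), a call lost without either TMEM88 shRNA array and with no detection filter (limma adjusted p = 0.1), and the list median was 1.22. The summed level of 11 pluripotency markers was 18680 and 13780 with shRNA 691 and 94, against 12880 and 12980 in the controls, with NANOG detected on no array, none of 8 called and a median of 0.47. The brightest of these, LIN28A and LIN28B, RNA-binding protein genes of stem cells, stood at 0.28 ± 0.26 and -0.34 ± 0.23. Most of the pluripotency sum came from LIN28A. Of the 8 tested pluripotency genes 7 had a positive difference, against 50.1% of all genes, and LIN28B a negative one. In 5 of the 8 both TMEM88 shRNA arrays lay above both controls, against 25.2% of all genes, and in 1 below both. The sum of 11 amnion and trophoblast markers was 8664 and 9008 with shRNA 691 and 94, against 5332 in control 1 and 10440 in control 2, with CDX2 at no detection, none of 6 called and a median of -0.18. The brightest of these, ISL1 and HAND1, which are also cardiac progenitor genes, stood at 0.03 ± 0.26 and 0.71 ± 0.50. Most of the amnion sum came from HAND1 and ISL1. HAND1 had signals of 4682.2 and 4330.9 with shRNA 691 and 94, against 1666.1 and 4866.2 in controls 1 and 2. IGFBP3 of the same list read 176.5 and 148.8 with shRNA 691 and 94, against 223.7 and 410.2 in the controls. POU5F1, a pluripotency factor gene, read 809.9 and 577 with shRNA 691 and 94, against 220.6 and 575.5 in controls 1 and 2. FOXA2, GATA6, IGFBP3 and POU5F1 are named after their values were seen. The endoderm sum was higher on both TMEM88 shRNA arrays than in both controls. Of the 10 tested endoderm genes, 9 lay above both controls on both TMEM88 shRNA arrays, against 25.2% of all tested genes. GATA6 lay below both controls on both, against 24.9% of all tested genes. HAND1 and POU5F1 were lowest in control 1, while IGFBP3 was lowest on the TMEM88 shRNA arrays. Patterns over 4 arrays are too short to be matched between genes, and the part of these markers in the claudin values was not tested.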

How the data were processed

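The arrays were single-colour Illumina bead arrays of biotinylated cRNA, per the labels' protocols. The deposited scanner table gives a linear signal intensity with a detection p-value at its side, per the file headers, and its medians differ between arrays, as unnormalized values do. The deposited series matrix gives log2 values, which lay within 0.158 of quantile-normalized log2 signals and had a median of 7.02 in every column; the method of its normalization was not found in the labels or headers. The submitters' processing notes name lumi and limma 3.12.3 without a role.

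Background correction and quantile normalization used neqc (limma 3.58.1, R 4.3.3, offset 16), which inferred negative controls from the detection p-values. By the platform annotation 30113 probes carried 1 gene symbol, 8 several and 17201 none, and 30081 were found in the GRCh38.p14 gene table, from which names, places and neighbours were taken. A probe was kept if its detection p was under 0.01 on at least 2 arrays, and the kept probe with the highest mean stood for its gene. The groups were compared by limma's lmFit and eBayes, 2-sided, with 2 residual and 4.84 prior degrees of freedom. A second fit with 3 groups tested each hairpin and their difference. It has 1 residual degree of freedom, from the controls, whose spread the single arrays are taken to share. The number of arrays limits the precision. The steps were tested on simulated data.

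The members, lists and tests were chosen with earlier results of these data known. Named are all members, TMEM88, up to 3 called genes of each list (or its 2 brightest where none was called) and tested chromosome neighbours. Further genes of the lists were named after their values were seen. Likeness of pattern was not ranked, since 4 arrays are too few. The lists are other keratins, other claudins, tight junction and polarity, desmosome and plakin, epithelial surface and adherens, epithelial transcription factors, repressors and mesenchymal genes, endoderm, pluripotency, amnion and trophoblast, endothelial and cardiac progenitor genes. A planned comparison of claudin proteins was not made. Alternatives changed the arrays included, the threshold, the variance model, how many probes a gene had, the filter on detection, and the correction, scaling and source of the values. Figures were drawn with matplotlib 3.10.9.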

Additional observations from a re-analysis of the deposited data

How the results depend on the processing

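The count of members called was 0 under every alternative run with all 4 arrays at the threshold of 0.05, and 1 gene and 1 probe, both of CLDN3, passed at 0.1. With 1 array left out, between 0 and 2 member genes and between 0 and 1 member probes passed. No member passed for shRNA 691, for shRNA 94 or for their difference under any alternative run. The directions of KRT8, KRT18, KRT19, CLDN3, CLDN7, DSP and TJP1 held under all 12 alternatives run for them. With 1 array left out, CLDN6 ran from -0.044 (without control 1) to 1.26 (without control 2), and CLDN10 from -0.84 (without shRNA 94) to 0.11 (without shRNA 691). Over all genes, 205 calls became 19 with no detection filter, 448 at a threshold of 0.1, and between 50 and 1453 with 1 array left out. Among the genes of the other lists, 11 calls became 3 with no detection filter, 17 with a variance trend, 20 at a threshold of 0.1, and between 4 and 31 with 1 array left out. The cause was not tested, except that without a control the spread comes from the TMEM88 shRNA pair alone and that leaving out 1 hairpin tests the remaining one alone. CLDN4 entered only with no detection filter or a detection p under 0.05 (log2 difference 0.40, limma adjusted p between 0.527 and 0.619). No paired analysis was possible because the labels give the groups no shared replicate number.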

Other observations

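Genes beside the members on the chromosome were read from the same fit. KRT8 and KRT18 adjoin on chromosome 12, and EIF4B, the other neighbour of KRT18, stood at 0.26 ± 0.25. CLDN3 lies between CLDN4 and ABHD11, an abhydrolase gene, which stood at -0.05 ± 0.26 (limma adjusted p = 0.945), and METTL27 on the far side of CLDN4 stood at 0.30 ± 0.25. CLDN7 adjoins ELP5, an Elongator subunit gene, at 0.25 ± 0.23. CLDN10 lies between ABCC4, a transporter gene of cyclic nucleotides, and DZIP1, a cilium gene, which stood at 0.89 ± 0.24 and 0.68 ± 0.23 (limma adjusted p = 0.128 and 0.187), both with TMEM88 shRNA above both controls. RIOK1 and SNRNP48 beside DSP stood at -0.97 ± 0.34 and -0.11 ± 0.27, NSMCE3 beside TJP1 at -0.12 ± 0.23 and TNFRSF12A beside CLDN6 at 0.25 ± 0.67. None of these neighbours passed, against 1.98% of all tested genes.

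Of 10 endothelial markers on the array, PECAM1, CDH5, TIE1 and ESAM were detected on no array. Of 5 tested endothelial genes none passed, 4 had a positive and 1 a negative difference, and the median log2 difference was 1.20. That median was the value of KDR, at 1.20 ± 0.69 with the groups overlapping. The brightest were VWF, encoding von Willebrand factor, and SOX18, an endothelial transcription factor gene, at 1.88 ± 0.34 and 1.32 ± 0.28 (limma adjusted p = 0.0502 and 0.0707). Among the alternatives, 1 endothelial gene passed in the deposited matrix and with a variance trend. None passed with no background correction or with median scaling. Of 12 tested cardiac progenitor genes 5 fell and none rose, against 1.98% of all genes called in either direction, with a median of -1.16. The list had 4 positive and 8 negative differences. NKX2-5, named after its values were seen, stood at 0.97 ± 0.42 and did not pass (limma adjusted p = 0.282). Both TMEM88 shRNA arrays lay above both controls for NKX2-5. HAND2, MYL4 and MEF2C were among those that fell. HAND2 stood at -3.74 ± 0.25 (limma adjusted p = 0.00406) but was detected on 1 of the 2 TMEM88 shRNA arrays, and its difference was -2.02 with no background correction. MYL4 stood at -3.38 ± 0.24, and at -2.24 as the mean of its detected probes. MEF2C was detected on no TMEM88 shRNA array and was at least 3.14-fold lower on the background-corrected scale, a bound that depends on that correction, since its log2 difference was -1.02 without it and -1.16 in the deposited matrix. All 3 passed in each of these settings.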
